A study of Mus musculus with 18 samples.

Results

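Posterior palate of mouse embryos at embryonic day 15.5 was compared between 6 mutant and 6 control samples, which are 12 of the 18 Affymetrix arrays of the study. Both groups were C57BL/6J mice with the Tgfbr2 fl/fl genotype, so the floxed receptor allele was present in controls and mutants alike, and only the mutants also carried K14-Cre. The remaining 6 arrays, anterior palate of Tgfbr2 fl/fl controls, served only to check the region. The stated purpose was to follow signalling between epithelium and muscle during soft palate development once epithelial cells lack the receptor. The design text speaks of 5 samples a group, the labels list 6 and all 6 were used, and mutants came from other litters than controls. Litter and genotype therefore cannot be told apart. One label field calls the control model wildtype, while the genotype field gives Tgfbr2 fl/fl. Sex was not determined, and the number of embryos behind a sample is not given in the sources used here, so each p-value reflects only how these samples scatter. The rule for the comparison also asked which differences held in mutants 1 to 3 and in mutants 4 to 6 taken separately, each against the same 6 controls.

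TGF-beta ligands bind a receptor complex of TGFBR2, which captures the ligand, and TGFBR1, which phosphorylates SMAD proteins that enter the nucleus and regulate transcription. In the palate the pathway is known for its part in the disappearance of the midline epithelial seam when the shelves fuse, and in keratinocytes for restraining growth. The keratin 14 promoter that drives the recombinase is active in basal cells of stratified epithelium, so mesenchyme, muscle, bone and blood cells in the same tissue keep an intact floxed receptor gene. RNA came from the whole posterior palate, in which fewer cells of a type and less RNA per cell cannot be told apart.

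Posterior control tissue carried the markers its label implies, and mutant tissue did so for some of these genes and not for others. Meox2 and Tbx22, transcription factors of the posterior palate, read 10.85 to 11.24 and 8.63 to 9.43 on the log2 scale in posterior controls, against 7.78 to 8.66 and 6.30 to 8.49 in anterior controls. In mutants 1 to 3 Meox2 read only 9.10, 9.53 and 9.66, below every posterior control, whereas mutants 4 to 6 read 10.72, 11.27 and 11.82. Its difference from control was -1.58 in mutants 1 to 3 (adjusted p = 0.000111) and 0.27 in mutants 4 to 6 (adjusted p = 0.398), and the sets of mutants differed from each other by -1.84 (adjusted p = 0.00046, limma). Tbx22 read 5.37 to 9.54 in mutants (median 7.74). Msx1, an anterior factor, read 9.83 in mutant 1 and 5.86 to 7.64 in the other mutants, with 8.50 to 10.26 in anterior controls. Shox2, also higher in anterior controls (at least 10.44), read 7.52 to 9.99 in mutants. The muscle regulators Myod1 and Myog read 6.86 to 9.08 and 9.14 to 11.58 in mutants, against at most 5.43 and 7.64 in anterior controls. Barx1 read 8.81 to 10.37 in mutants, 10.24 to 10.73 in posterior controls and 9.32 to 10.24 in anterior controls.

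The arrays formed sets that no label names. Hybridisation spike-ins averaged 11.38 to 11.91 in mutants 1 to 3, 10.67 to 10.78 in mutants 4 to 6, 10.53 to 10.55 in controls 1 to 3 and 10.88 to 10.94 in controls 4 to 6, and labelling spike-ins were 7.23 to 8.91 in mutants against 9.46 to 11.11 in controls. Array medians were 5.87 to 5.90 in mutants 1 to 3 and 5.75 to 5.80 in the other posterior arrays. Mutant 1 stood furthest apart, with a mean of 8.08 over 40 basal and pan-epithelial genes where the other 11 arrays read 9.56 to 10.44, and its labelling spike-ins were the lowest (7.23). The 3 prime minus 5 prime difference of the labelling spike-ins was 2.50 in mutant 1 and 2.36 in mutant 2, against 0.68 to 1.37 in the other arrays. Y-linked genes were high in controls 1, 2, 3 and 6 and in mutants 1 and 5, and control 1 and mutant 1 also carried Xist (10.69 and 8.13) beside the Y-linked gene Eif2s3y (7.16 and 8.33). With a sex score as a covariate 1224 genes were called over the 12 arrays. The part of these sets in any difference was not tested beyond the separate fits given here.

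Of 18193 genes, 1573 differed between mutant and control at a Benjamini-Hochberg adjusted p under 0.05 in limma (8.65%), 936 higher (5.14%) and 637 lower in mutants (3.5%). For 1195 genes (6.57%) every mutant value lay outside the control range on 1 side. Against the same controls, mutants 1 to 3 gave 4075 calls (22.4%), 2605 higher (14.3%) and 1470 lower (8.08%), and mutants 4 to 6 gave 3592 (19.7%), 1624 higher (8.93%) and 1968 lower (10.8%). Of the 1573 genes, 978 (5.38% of all genes) were called in the same direction with each set, 541 higher and 437 lower, while 279 were called with mutants 1 to 3 only, 298 with mutants 4 to 6 only and 18 with neither. These 978 genes are said below to hold in both sets. Both comparisons use the same controls, so they are not independent of each other. A direct comparison of mutants 1 to 3 with mutants 4 to 6 called 3510 genes (19.3%), whereas controls 1 to 3 against controls 4 to 6 called 3 (0.0165%; 1368 at an unadjusted p under 0.05). Those 3 were Cap1, Hsf2 and Rpl27a. With the 4 sets of arrays as a random block 235 genes were called over the 12 arrays, and all 235 were among the 978. The block leaves the genotype difference as it was and mainly widens its SE, so this overlap was nearly fixed in advance. Genotype varies only between the 4 sets, yet the block fit counts its degrees of freedom by arrays. The random-block p-values here and below may therefore be too small. The shares of all genes given here are the background for the list counts below.

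The count over 12 arrays was 919, 679, 720 and 759 without control 2, 4, 5 or 6, and 1890 for mutants 4 to 6 without mutant 6. When each array was centred on its median, 1146 genes were called and 39.7% of them were higher, and when arrays were centred on ribosomal protein genes 2074 were called and 77.5% were higher, against 59.5% as deposited. The split between higher and lower calls therefore moves with the scaling. The median difference over all genes was 0.042 as deposited.

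The largest differences that held in both sets fell into a few recognisable kinds (the plot of the largest held differences). Upward they were led by genes of differentiating stratified epithelium (Krt6b, Sprr1a, Csta1, Krt13, Sprr3, Cnfn, Spink5). The others were the bone-cell genes Dmp1 and Phex, the mast-cell protease Tpsab1, the matrix protein Clec3b and the isoprenoid enzyme Idi2. Downward they were Gt(ROSA)26Sor, a broadly transcribed non-coding RNA, embryonic globin Hbb-y, the ribonuclease Ang, the sulfotransferases Sult1d1 and Sult1b1, the keratinocyte factor Kdf1, the hormone Fgf21, and Zfp874a, Svopl, Dnph1, Rpgrip1 and Rsl1.

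**Figure D1:**
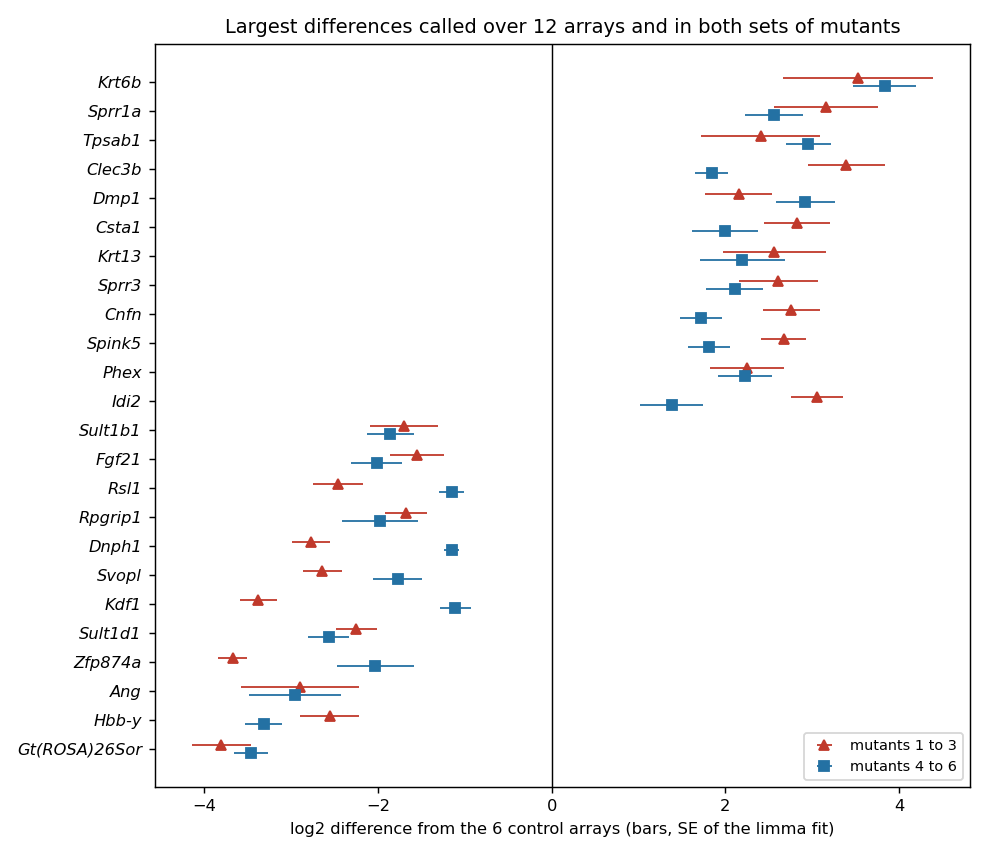
Log2 difference from the 6 control arrays for mutants 1 to 3 (triangles) and mutants 4 to 6 (squares), with the SE of the limma fit as bars, for the 12 largest differences in each direction that held in both sets with non-overlapping groups. All 24 genes lie on the same side of 0 in both sets because they were chosen for it. Kdf1 (-3.38 and -1.11) and Idi2 (3.05 and 1.38) show some of the widest gaps between sets.

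Keratinocyte differentiation genes were raised in mutant tissue. Of 39 measured cornified-envelope and suprabasal genes, 15 were higher and 0 lower over the 12 arrays, 17 higher with mutants 1 to 3, 15 higher and 1 lower with mutants 4 to 6, and 12 held in both sets. Of all genes 5.14%, 14.3% and 8.93% were higher in these fits, in that order. With the 4 sets of arrays as a random block (consensus correlation 0.261) 2 of the 15 were still called. Their median difference was 0.58, 0.79 and 0.26 in the 12-array, mutants 1 to 3 and mutants 4 to 6 fits, where the medians over all genes were 0.042, 0.087 and 0.0029. The list mean read 5.98 to 6.51 in controls (median 6.25) and 6.48 to 7.80 in mutants (median 7.14). Mutants 1 and 4, at 6.52 and 6.48, lay at the level of the highest control, and the other 4 mutants lay above it. Of the 39, 5 differed between the sets of mutants, each higher in mutants 1 to 3. The count was 9 without control 1, 4 or 6, and 19 without mutant 1.

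Krt6b, a keratin of activated and suprabasal keratinocytes, read 4.72, 5.16 and 5.44 (lowest, median and highest) in controls and 5.58, 9.52 and 10.24 in mutants. The groups did not overlap, though mutant 1 at 5.58 was barely above the highest control. The difference was 3.68 (SE 0.66, adjusted p = 0.00701), with 3.53 in mutants 1 to 3 (adjusted p = 0.0187) and 3.83 in mutants 4 to 6 (adjusted p = 0.00035). Without mutant 1 it was 4.32 (adjusted p = 6.42e-05). The control median of 5.16 lay under 5.22, the level below which 95% of 70 olfactory and vomeronasal receptor genes fell, so the size of the change may be understated. The same holds for Dkk4, Csta1, Spink5, Sprr1b and Tpsab1 below.

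Sprr1a, a small proline-rich precursor that transglutaminases cross-link into the cornified envelope, read 5.81, 6.51 and 6.90 in controls and 7.64, 9.50 and 10.87 in mutants. Every mutant lay above every control. Its difference was 2.86 (SE 0.48, 7.27-fold, adjusted p = 0.00546), 3.16 with mutants 1 to 3 (adjusted p = 0.00612) and 2.56 with mutants 4 to 6 (adjusted p = 0.00159). Its relative Sprr3 rose by 2.36 (adjusted p = 0.00579), from a control range of 5.45 to 5.89 to a mutant range of 6.79 to 9.73. Sprr1b rose by 1.37 (adjusted p = 0.0376), from at most 3.38 in controls to at least 3.41 in mutants, and lost its call without any 1 of the 6 controls or of mutants 3 and 5 (adjusted p up to 0.0838).

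Krt13, the keratin of mucosal suprabasal cells, read 8.63 to 11.04 in controls and 11.07 to 13.18 in mutants and rose by 2.38 (SE 0.45, adjusted p = 0.0085). Its gap between groups was narrow, since the highest control and the lowest mutant nearly met. Its partner Krt4 rose by 1.81 (adjusted p = 0.00992). Csta1, a cysteine protease inhibitor of the envelope, rose by 2.41 (adjusted p = 0.00392), and Cnfn, cornifelin, by 2.24 (adjusted p = 0.00332). Spink5, a serine protease inhibitor of cornifying epithelium that the list does not hold, read 3.29 to 3.55 in controls and 4.40 to 6.58 in mutants, a difference of 2.24 (adjusted p = 0.00155). Dsg1a, a desmosomal cadherin of upper layers, rose by 1.63 (adjusted p = 0.0108) and Tgm3, a cross-linking transglutaminase, by 1.20 (adjusted p = 0.0182).

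The epidermal keratin Krt1 rose with mutants 1 to 3 (1.73, adjusted p = 0.00129) and was not called with mutants 4 to 6 (0.60, adjusted p = 0.144), and the sets differed from each other by 1.13 (adjusted p = 0.0475). Its partner Krt10 differed by 0.13 (adjusted p = 0.315) with mutants 1 to 3 and -0.48 (adjusted p = 0.02) with mutants 4 to 6, and the sets differed by 0.62 (adjusted p = 0.00857). Lor, the major envelope protein of epidermis, showed 0.58 (adjusted p = 0.0453) and -0.39 (adjusted p = 0.0657) in that order, again with a difference between sets (0.97, adjusted p = 0.00586, limma). With the 4 sets as a random block Cnfn (adjusted p = 0.0353), Csta1 (0.045) and Spink5 (0.0211) were still called, and Krt6b (0.0821), Sprr1a (0.0629), Sprr3 (0.067) and Krt13 (0.092) were not.

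The promoters of these genes are shown because AP-1 factors and grainyhead factors are known regulators of epithelial differentiation. RefSeq (GRCm38.p6) gave a promoter for 30 of the 39 measured genes, 35 promoters in all, and none for Krt6b or Spink5. In the 250 bases before the start, the AP-1 motif TGANTCA, which reads alike on both strands, occurred in 16 of the 35 promoters (45.7%) and in 2217 of all 32851 promoters of the same length (6.75%). It occurred in 6 of 12 promoters of called members and in 10 of 23 of members not called, so its presence did not separate them. The grainyhead motif AACCGGTT, also its own reverse complement, was in 0 of the 35 and in 38 of all promoters (0.116%). The Sprr1a promoter holds the AP-1 motif 146 and 116 bases before the start and TATAAA 43 bases before it, Sprr3 holds TATAAA at 33 bases and no AP-1 motif, and the first of the Krt13 entries holds the AP-1 motif at 196 bases. Capitals mark these motifs in the following promoters, which lie at chr3:92485882-92486131 (Sprr1a), chr3:92458721-92458970 (Sprr3) and chr11:100121567-100121816 (Krt13), each on the minus strand.
Sprr1a: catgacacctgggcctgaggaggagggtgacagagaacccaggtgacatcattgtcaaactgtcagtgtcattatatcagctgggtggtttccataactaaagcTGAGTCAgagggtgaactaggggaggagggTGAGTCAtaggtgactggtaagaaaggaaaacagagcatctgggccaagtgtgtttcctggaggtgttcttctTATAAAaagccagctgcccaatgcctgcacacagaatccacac
Sprr3: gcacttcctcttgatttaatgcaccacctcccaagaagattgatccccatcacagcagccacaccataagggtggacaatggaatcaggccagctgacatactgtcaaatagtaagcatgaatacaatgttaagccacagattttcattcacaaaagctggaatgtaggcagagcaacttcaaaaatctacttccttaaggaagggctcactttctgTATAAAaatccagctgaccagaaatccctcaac
Krt13: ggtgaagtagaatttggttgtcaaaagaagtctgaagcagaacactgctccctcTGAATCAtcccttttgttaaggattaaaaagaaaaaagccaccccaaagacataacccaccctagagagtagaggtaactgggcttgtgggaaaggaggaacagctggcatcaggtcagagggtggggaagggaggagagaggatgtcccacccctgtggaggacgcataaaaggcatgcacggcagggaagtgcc

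Of 40 basal and pan-epithelial genes, which include those of the cells that drive the recombinase, none was called over the 12 arrays, 3 were lower with mutants 1 to 3, and 6 were lower and 1 higher with mutants 4 to 6. Without mutant 1, 2 were higher, the basal keratin Krt5 (0.75, adjusted p = 0.0474) and the integrin Itga6 (0.32, adjusted p = 0.0317). The median difference was -0.35, and -0.0042 without mutant 1. Krt14 read 11.89 to 12.58 in controls and 10.77 to 12.87 in mutants, and its difference was -0.29 (adjusted p = 0.583). Cdh1, the epithelial cadherin, read 8.25 in mutant 1 and 10.42 to 11.74 in the other mutants, against 11.52 to 12.04 in controls, and was not called (-1.07, adjusted p = 0.18). Of 21 nasal secretory epithelium genes none was called, and Reg3g, an antimicrobial lectin with the smallest p of that list, differed by -1.60 (adjusted p = 0.0543). Without mutant 1, 1 of the 21 was higher and 2 were lower, among them Reg3g (-1.17, adjusted p = 0.0341, limma). Kdf1, a factor that restrains basal keratinocyte proliferation, was lower in every mutant than in any control, with 8.52 to 9.34 in controls, 5.23 to 5.99 in mutants 1 to 3 and 7.64 to 8.10 in mutants 4 to 6. Its difference was -2.24 (adjusted p = 0.0152), and the sets of mutants differed from each other by -2.27 (adjusted p = 0.000124). Its other probe set differed by -0.53 (adjusted p = 0.25 with every probe set tested).

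**Figure D2:**
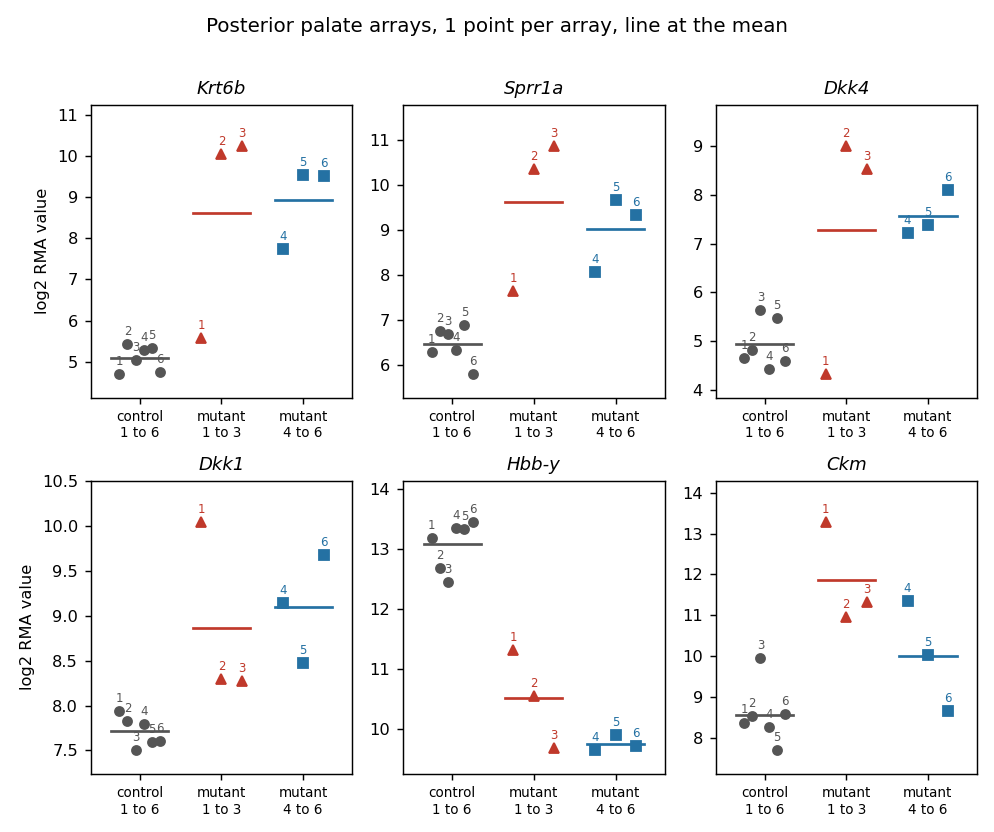
Log2 RMA values of 6 marker genes in each of the 12 posterior palate arrays (numbered points), with a line at the mean of controls, of mutants 1 to 3 and of mutants 4 to 6. Krt6b, Sprr1a and Dkk4 are lowest in mutant 1 among the mutants, Dkk1 and Ckm are highest there, and Hbb-y lies below the controls in all 6 mutants.

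The arrays do not show the loss of Tgfbr2 itself. Its brightest probe set read 10.25, 10.45 and 10.73 in controls and 10.63, 11.05 and 11.39 in mutants, a difference of 0.55 upward (SE 0.13, adjusted p = 0.025). The groups overlapped in mutant 2. It was called with mutants 4 to 6 (0.76, adjusted p = 0.00344) and not with mutants 1 to 3 (0.34, adjusted p = 0.0926), and the sets did not differ at the threshold (adjusted p = 0.0631). With the difference between the control sets subtracted, the sets of mutants differed by -0.78 (adjusted p = 0.0116, limma). Controls 1 to 3 read 10.58 to 10.73 and controls 4 to 6 read 10.25 to 10.31. Its dimmer probe sets differed by 0.24 and -0.10 (adjusted p = 0.205 and 0.577 with every probe set tested). The call was lost without control 4, 5 or 6 (adjusted p up to 0.066), after median centring (0.0572) and with the random block (0.0963). Where its probes lie relative to the floxed exons is not given in the sources used here and the RNA came from whole tissue, so these values check nothing about the deletion.

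Among 23 ligands, receptors and SMADs of the pathway 3 were higher over the 12 arrays, 1 without control 4, 5 or 6. With mutants 4 to 6 11 were higher and 1 lower, where 8.93% and 10.8% of all genes were. With mutants 1 to 3 1 was higher and 2 lower, where 14.3% and 8.08% of all genes were. The co-receptor Tgfbr3, which presents ligand to TGFBR2, was the member that held in both sets, reading 8.76 to 9.38 in controls and 9.49 to 10.26 in mutants (0.86, SE 0.14, adjusted p = 0.00436). No mutant reached down to the controls. The ligand gene Tgfb2 was lower with mutants 1 to 3 (-0.49, adjusted p = 0.00511) and higher with mutants 4 to 6 (0.39, adjusted p = 0.0101), and the sets differed by -0.88 (adjusted p = 0.000244). Tgfb3, the ligand of the palatal midline epithelium, was not called over the 12 arrays (0.19, adjusted p = 0.22).

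Of 25 genes known to respond to TGF-beta, 3 were higher and 1 lower, where 5.14% and 3.5% of all genes were. All 4 held in both sets. The lower count was 2 without control 3. Thbs1, a matrix protein that activates latent TGF-beta, read 7.69, 8.01 and 8.19 in controls and 8.82, 9.18 and 9.74 in mutants. Every mutant was above every control, and the difference of 1.22 (SE 0.14, 2.32-fold, adjusted p = 0.000401) was called in all 4 comparisons of 3 mutants with 3 controls. Cdkn2b, a cell-cycle inhibitor that TGF-beta induces in epithelial cells, was lower by -1.24 (SE 0.23, adjusted p = 0.00854), with 7.20 to 8.08 in controls and 5.83 to 7.26 in mutants, where mutant 2 at 7.26 overlapped the lowest control. Timp3, an inhibitor of metalloproteases, and Fn1, fibronectin, were higher by 0.91 (adjusted p = 0.0037) and 0.57 (adjusted p = 0.0255). Fn1 lost its call without control 4, 5 or 6 (adjusted p up to 0.0624) and with the random block (0.155), while Thbs1 (0.00859), Cdkn2b and Timp3 (0.045 each) kept theirs.

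Secreted inhibitors of WNT signalling included both Dickkopf genes among the markers. Dickkopf proteins bind LRP co-receptors and keep WNT from activating beta-catenin. Dkk1 read 7.51, 7.70 and 7.94 in controls and 8.27, 8.81 and 10.04 in mutants, with no overlap. Its difference was 1.27 (SE 0.28, 2.41-fold, adjusted p = 0.0185), 1.16 with mutants 1 to 3 (adjusted p = 0.0388) and 1.39 with mutants 4 to 6 (adjusted p = 0.00293). With the random block it was not called (adjusted p = 0.142). Dkk4 read 4.44, 4.74 and 5.64 in controls, 4.34 in mutant 1 and 7.22 to 8.99 in the other 5 mutants. Mutant 1 lay below all controls and the other mutants above all of them. The difference of 2.49 (SE 0.62, adjusted p = 0.0293) was therefore called with mutants 4 to 6 (2.63, adjusted p = 0.000817) and not with mutants 1 to 3 (2.35, adjusted p = 0.0797), although the sets differed by only -0.28 (adjusted p = 0.861). Without mutant 1 the difference was 3.10 (adjusted p = 0.000304). The call was lost without any 1 of controls 1, 2, 4, 5 and 6 or of mutant 3 (adjusted p up to 0.0729) and with the random block (0.194). Mutant 1 was thus lowest of the mutants in Krt6b, Sprr1a and Dkk4 and in the epithelial list mean, and highest in Dkk1.

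Of 20 measured WNT antagonists 3 were higher over the 12 arrays, Dkk1, Dkk4 and Sost, and 5 without mutant 2. Sost, a WNT inhibitor made by osteocytes, read 5.20 to 5.65 in controls and 6.11 to 7.77 in mutants and held in both sets (1.26, adjusted p = 0.00967). With mutants 4 to 6 9 were higher and 1 lower, where 8.93% and 10.8% of all genes were. With mutants 1 to 3 4 were higher and 3 lower, where 14.3% and 8.08% of all genes were. Between the sets 8 differed, 7 of them lower in mutants 1 to 3, where 19.3% of all genes differed. Wif1, which binds WNT ligands directly, was lower with mutants 1 to 3 (-1.49, adjusted p = 0.0141) and higher with mutants 4 to 6 (0.88, adjusted p = 0.0142), and the sets differed by -2.37 (adjusted p = 0.00233). Of 20 targets of beta-catenin 3 were higher (5 without mutant 2), both Dickkopf genes and Nkd1, a feedback inhibitor that rose by 0.59 (adjusted p = 0.00279) and held in both sets. Axin2, a widely used readout of the pathway, differed by 0.04 (adjusted p = 0.92).

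Of 40 WNT ligands and receptors 5 were higher over the 12 arrays, where 5.14% of all genes were. The count was 0 without control 4, 1 without control 5, 2 without control 1, 2 or 6, and 3 without control 3 or mutant 1, 3 or 4. Fzd9 and Ror1 held in both sets (0.57 and 0.42, adjusted p = 0.0219 and 0.0284), and Fzd9 lost its call without control 4 (adjusted p = 0.058) and Ror1 without control 3, 4, 5 or 6 (adjusted p up to 0.0743). In the SHH pathway Cdon, a co-receptor, was higher by 0.87 (adjusted p = 0.00724) and Foxf1, a mesenchymal target, lower by -0.51 (adjusted p = 0.0152), both held in both sets, and Shh itself was not called (-0.33, adjusted p = 0.759), with 7.05 in mutant 1 and 9.52 to 11.73 in the other mutants. The receptor genes Notch1 (0.49, adjusted p = 0.00291) and Notch2 (0.45, adjusted p = 0.0175) were higher in both sets. Of 23 BMP pathway genes 3 were higher over the 12 arrays, where 5.14% of all genes were. They were led by the antagonist Chrd (0.46, adjusted p = 0.0236, limma), and 0 held in both sets. The BMP count was 0 without control 4, 5 or 6, and 1 without control 3 or mutant 6.

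Sarcomere genes were called higher with mutants 1 to 3 and not with mutants 4 to 6, and for none of them was the gap between the sets itself called. Of 48 sarcomere genes 29 were higher and 0 lower with mutants 1 to 3, and 0 were called with mutants 4 to 6. Of all genes 14.3% were higher with mutants 1 to 3 and 8.93% with mutants 4 to 6. Over the 12 arrays 0 sarcomere genes were called (22 without mutant 6), and 0 for the difference between the sets. Their median difference was 1.11 with mutants 1 to 3, 0.32 with mutants 4 to 6 and 0.70 over the 12 arrays. The medians over all genes were 0.087, 0.0029 and 0.042 in that order. The list mean read 8.11 to 9.09 in controls, 10.39, 9.57 and 9.28 in mutants 1, 2 and 3, and 9.86, 9.02 and 8.06 in mutants 4, 5 and 6. Mutant 4 was higher than mutants 2 and 3, and mutant 6 was lower than every control. Myom2, a sarcomeric M-band protein, had the smallest p of the list (1.31, adjusted p = 0.0797). Myh3, embryonic myosin, differed by 1.12 with mutants 1 to 3 (adjusted p = 0.033) and 0.73 with mutants 4 to 6 (adjusted p = 0.271).

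Ckm, the creatine kinase of muscle, read 7.71, 8.45 and 9.96 in controls, 10.97 to 13.27 in mutants 1 to 3, and 11.35, 10.03 and 8.65 in mutants 4, 5 and 6. Only mutant 6 fell within the control range. The difference was 2.36 (SE 0.62, 5.15-fold, adjusted p = 0.0347) over the 12 arrays, 3.29 with mutants 1 to 3 (adjusted p = 0.00362) and 1.44 with mutants 4 to 6 (adjusted p = 0.108), and the sets differed by 1.85 (adjusted p = 0.104). The call was lost with the random block (adjusted p = 0.161), and a dimmer Ckm probe set differed by 0.49 (adjusted p = 0.0855 with every probe set tested). Ckm was the only member called among 39 genes of muscle excitation and energy over the 12 arrays. With mutants 1 to 3 27 of them were higher and 1 lower, where 14.3% and 8.08% of all genes were. With mutants 4 to 6 0 were higher and 1 lower, where 8.93% and 10.8% of all genes were. Of these 39, 4 were higher and 2 lower in mutants 1 to 3 than in mutants 4 to 6, Casq2, the calcium-binding protein of the sarcoplasmic reticulum, by 1.61. The 12-array count was 0 without any 1 of controls 1, 2, 4, 5 and 6 or of mutants 3 and 4, 2 without mutant 5 and 16 without mutant 6. Across the 12 arrays, after the genotype means were removed, the genes most like Ckm were Traf3ip3 (Pearson r = 0.992) and Tnni2 (0.987), those most like Krt6b were Krt16 (0.977) and Anxa1 (0.969), and those most like Sprr1a were Sbsn (0.979) and Ceacam1 (0.971). These r values describe 12 arrays that share sets and tissue makeup.

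Of 22 myogenic regulators 1, Mef2a, was higher and held in both sets (0.55, adjusted p = 0.00763, limma), where 5.14% of all genes were higher. Myod1, which commits cells to muscle, differed by 0.35 (adjusted p = 0.531), and Myog, which drives their differentiation, by 0.36 (adjusted p = 0.58) over the 12 arrays and by 0.79 (adjusted p = 0.0347) with mutants 1 to 3. The regulator count was 4 without mutant 6 and 2 without mutant 2.

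**Figure D3:**
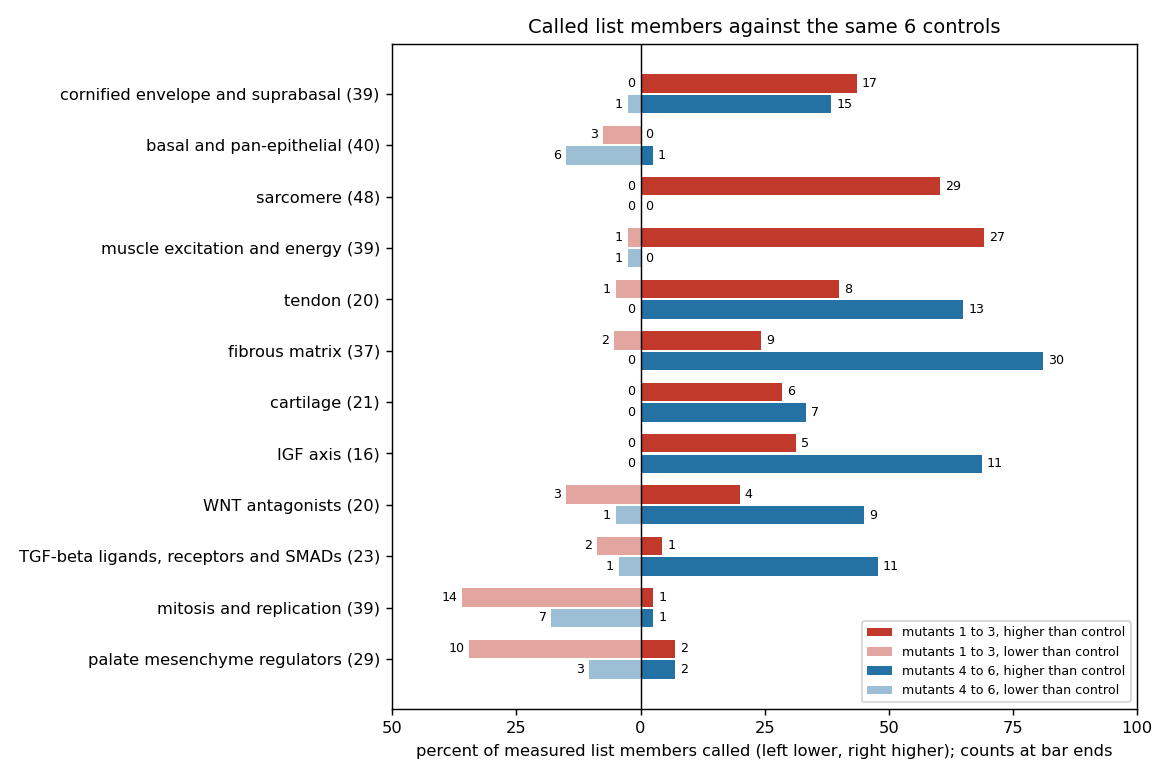
Percent of the measured members of 12 gene lists (number in brackets) called higher (right) or lower (left) with mutants 1 to 3 and with mutants 4 to 6 against the same 6 controls, with the counts at the bar ends. Sarcomere genes are called with mutants 1 to 3 (29) and not with mutants 4 to 6 (0), fibrous matrix genes are called most with mutants 4 to 6 (30 against 9), and the cornified list has 17 and 15 called higher, with 0 and 1 lower.

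Many connective-tissue genes were higher in mutants, 9 of them in both sets. Of 37 fibrous matrix genes 15 were higher and 0 lower over the 12 arrays, 9 higher and 2 lower with mutants 1 to 3, 30 higher with mutants 4 to 6, and 9 held in both sets. Of all genes 5.14%, 14.3% and 8.93% were higher in these fits, in that order. Between the sets 3 were higher and 7 lower in mutants 1 to 3. The count over 12 arrays was 8 without control 4, 5 or 6. Control arrays 1 to 3 had list means of 10.12 to 10.27 and controls 4 to 6 of 9.88 to 9.93, and mutants spanned 10.17 to 10.82. Mutant 2 was the 1 mutant inside the control range.

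Clec3b, tetranectin, read 5.44, 5.71 and 6.05 in controls and 7.06, 8.01 and 10.64 in mutants, a difference of 2.62 (SE 0.45, 6.13-fold, adjusted p = 0.00583). All mutants lay above all controls, and the sets differed by 1.55 (adjusted p = 0.0465), with the higher values in mutants 1 to 3. Dpt, dermatopontin, which binds decorin and collagen, rose by 1.78 (adjusted p = 0.0179), Fbln2, fibulin-2, by 1.07 (adjusted p = 0.00546) and Fbn2, fibrillin-2, by 0.78 (adjusted p = 0.00435). Mutant 4 was the lowest mutant for Dpt at 9.36, within the control range of 8.22 to 9.44. With the random block 4 of the 15 matrix genes were still called, Clec3b, Fbln2, Fbn2 and Timp3 (adjusted p = 0.045, 0.0389, 0.0434 and 0.045), and Dpt was not (0.133).

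Tendon genes followed the same direction. Of 20 measured, 9 were higher over the 12 arrays and 7 held in both sets, with 8 higher and 1 lower for mutants 1 to 3 and 13 higher for mutants 4 to 6. Of all genes 5.14%, 14.3% and 8.93% were higher in these fits, in that order. With the random block 1 of the 9 was still called. Htra3, a secreted protease, read 7.72 to 8.43 in controls and 8.67 to 9.96 in mutants (1.00, adjusted p = 0.0126). Egr1, a transcription factor active in tendon cells and an immediate-early gene, read 9.37, 9.55 and 9.76 in controls and 10.03, 10.25 and 10.65 in mutants, with no overlap (0.72, SE 0.11, adjusted p = 0.00279). Tnmd, tenomodulin, was called with mutants 1 to 3 (1.65, adjusted p = 0.00222) and not with mutants 4 to 6 (1.16, adjusted p = 0.0698), and its 12-array call (1.40, adjusted p = 0.0224) was lost without control 4 or 5 (adjusted p up to 0.059). The fibril genes Col5a1 and Col14a1 rose by 0.99 and 0.74 (adjusted p = 0.0117 and 0.00972).

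The genes Dmp1, Phex and Sost of osteocytes, the cells embedded in bone matrix, were higher in mutants. The mean of 18 bone genes read 8.20 to 8.59 in controls, 8.13 in mutant 2 and 8.31 in mutant 3. The other mutants read 8.71 to 9.69. Dmp1, a mineralisation protein of osteocytes, read 8.23, 9.23 and 9.56 in controls and 10.70, 11.64 and 12.77 in mutants. Each mutant exceeded every control, and the difference was 2.54 (SE 0.35, 5.80-fold, adjusted p = 0.00192), 2.15 with mutants 1 to 3 and 2.92 with mutants 4 to 6 (adjusted p = 0.00485 and 0.001). Phex, an osteocyte endopeptidase, rose by 2.24 (SE 0.35, adjusted p = 0.00373), 2.25 and 2.23 in the separate sets, from 6.93 to 7.91 in controls to 8.84 to 10.95 in mutants. With Sost, these were the 3 of 18 bone genes called higher, where 5.14% of all genes were. All 3 held in both sets and under every single-array omission. With the random block 1 of the 3, Dmp1 (adjusted p = 0.0273), was still called, and Phex (0.052) was not. Tnfrsf11b, the decoy receptor that restrains osteoclasts, was lower with mutants 1 to 3 (-3.65, adjusted p = 0.000147) and not called with mutants 4 to 6 (-0.98, adjusted p = 0.0681), and the sets differed by -2.67 (adjusted p = 0.000993). Its 12-array call (-2.31, adjusted p = 0.0312) was lost without any 1 of controls 2, 4, 5 and 6 or of mutants 1, 2 and 3 (adjusted p up to 0.0773).

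Of 21 cartilage genes 20 differences were positive, with a median of 0.88, yet 1 was called over the 12 arrays, Col11a2 (1.23, adjusted p = 0.0318). The list mean read 6.59 to 7.14 in controls and 9.03 in mutant 3, with 6.95 to 8.06 in the other mutants. The count was 7 without mutant 2, 4 without mutant 5, 2 without mutant 1, and 0 without any 1 of controls 3 to 6 or of mutants 3 and 6. Col2a1, the main cartilage collagen, differed by 1.48 and 1.44 in the separate sets (adjusted p = 0.0596 and 0.0309), and read 8.53 in mutant 2, inside the control range of 8.08 to 9.22.

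**Figure D4:**
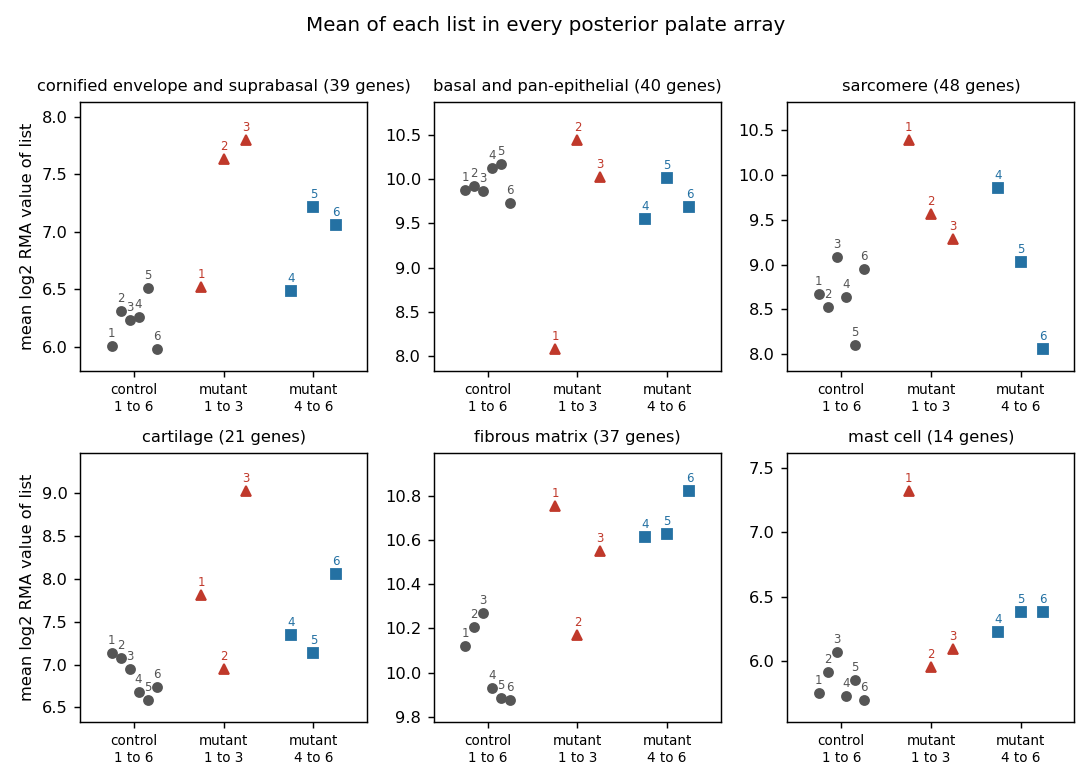
Mean log2 RMA value of 6 gene lists in each posterior palate array (numbered points). Mutant 1 is lowest for the basal and pan-epithelial list (8.08) and highest for the sarcomere (10.39) and mast cell (7.32) lists, mutant 3 is highest for cartilage (9.03), and controls 4 to 6 are the lowest for fibrous matrix.

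Of 16 genes of IGF signalling, a growth-factor system of mesenchyme and muscle, 5 were higher and 0 lower, and 3 held in both sets. Higher calls numbered 11 with mutants 4 to 6 and 5 with mutants 1 to 3, where 8.93% and 14.3% of all genes were higher. Igf2r, the receptor that clears IGF2, read 10.08 to 10.28 in controls and 10.84 to 12.17 in mutants (1.06, SE 0.18, adjusted p = 0.00594). The docking proteins Irs1 and Irs2 rose by 0.58 and 0.49 (adjusted p = 0.0174 and 0.0102). With the random block 0 of the 16 were called higher, Igf2r at an adjusted p of 0.0683. Igf1 was higher with mutants 4 to 6 (0.74, adjusted p = 0.00344) and not with mutants 1 to 3 (0.02, adjusted p = 0.945), and the sets differed by -0.72 (adjusted p = 0.0158). The count over 12 arrays was 3 without control 4, 5 or 6 or without mutant 3.

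Of 29 transcription factors and signals of palatal mesenchyme 3 were lower, Six2, Six3 and Runx1, and 0 higher. Six2, a regulator of mesenchymal progenitors, read 9.81 to 10.11 in controls and 8.57 to 9.47 in mutants and held in both sets (-0.76, SE 0.13, adjusted p = 0.00635). All mutants were below all controls, and with the random block Six2 was not called (adjusted p = 0.0629). The count was 1 without any 1 of controls 1, 4, 5 and 6 or of mutants 3 and 4. With mutants 1 to 3 10 of the 29 were lower and 2 higher, where 8.08% and 14.3% of all genes were. Those lower included Meox2 and Tbx22 (-2.14, adjusted p = 0.00862, limma). With mutants 4 to 6 3 were lower and 2 higher, where 10.8% and 8.93% of all genes were. Osr2, a zinc-finger factor of shelf growth, was lower with mutants 1 to 3 (-0.83, adjusted p = 0.0275) and higher with mutants 4 to 6 (0.65, adjusted p = 0.0266), with a difference between sets of -1.47 (adjusted p = 0.00462).

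Embryonic globins were lower in the mutants. Hbb-y, the embryonic beta-like globin of primitive red cells, read 12.46, 13.27 and 13.45 in controls, and 11.32, 10.56, 9.69, 9.66, 9.90 and 9.73 in mutants 1 to 6. Every mutant was below every control, by more than a log2 unit at the closest. The difference was -2.94 (SE 0.29, 7.65-fold, adjusted p = 0.000145), -2.55 with mutants 1 to 3 and -3.32 with mutants 4 to 6 (adjusted p = 0.00112 and 4.19e-05), it was called in all 4 comparisons of 3 mutants with 3 controls, and it kept its call with the random block (adjusted p = 0.00207). Its other probe sets differed by -2.96 and -3.06. Hba-x, the embryonic alpha-like globin, differed by -1.40 (adjusted p = 0.0115) and held in both sets. For Hba-x mutant 1 at 8.76 lay within the control range of 8.51 to 9.32, and the call was lost with the random block (adjusted p = 0.0793). Globin genes are alike in sequence, so their probe sets may pick up each other's transcripts. Of 19 erythroid genes 2 were lower and 1, Rhag, higher, where 3.5% and 5.14% of all genes were. Rhag lost its call without any 1 of the 6 controls or of mutants 1, 3, 5 and 6. Hbb-b2, an adult beta globin, and Alas2, the haem enzyme of red cells, were not called, at -0.52 (adjusted p = 0.19) and 0.29 (adjusted p = 0.654).

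Of 30 macrophage and leukocyte genes 2 were lower and 2 higher over the 12 arrays, where 3.5% and 5.14% of all genes were. The 2 lower ones held in both sets and under every single-array omission. Cd52, a glycoprotein of lymphocytes and macrophages, read 8.55, 8.74 and 8.83 in controls and 7.28, 7.56 and 7.78 in mutants (-1.17, SE 0.10, adjusted p = 8.6e-05). C1qb, a complement subunit made by macrophages, read 9.88 to 10.18 and 9.14 to 9.67 (-0.68, SE 0.10, adjusted p = 0.00292). Neither gene overlapped between groups. The scavenger receptor gene Cd163 and the endotoxin co-receptor gene Cd14 were higher over the 12 arrays (0.59 and 0.41, adjusted p = 0.0274 and 0.0399), with Cd163 at 4.21 or less on every array. The higher count was 0 without any 1 of controls 1, 2, 4 and 6, and 1 without control 5 or mutant 5.

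The mast-cell tryptase Tpsab1 read 4.39, 4.71 and 4.84 in controls and 5.83, 7.26 and 9.46 in mutants, with no overlap, and its difference was 2.68 (SE 0.53, adjusted p = 0.0103). Both sets were called (2.41 and 2.96, adjusted p = 0.0323 and 0.000262). Of 14 mast-cell genes 2 were higher, Tpsab1 and Mitf (0.54, adjusted p = 0.0479), and 4 without mutant 1. Over the 12 arrays 5.14% of all genes were higher. Mitf lost its call without any 1 of the 6 controls or of mutants 3, 4 and 5 (adjusted p up to 0.109), which leaves 1. Cpa3 and Cma1, further proteases of these cells, were not called (0.67 and 0.46, adjusted p = 0.323 and 0.596), and in mutant 1 they read 11.02 and 11.17, where the other mutants reached at most 9.46 and 9.02.

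Of 39 mitosis and replication genes 6 were lower and 0 higher, 5 of them in both sets, where 3.5% of all genes were lower. Cenpa, the centromeric histone, was lower by -0.54 (SE 0.09, adjusted p = 0.00534), with 10.66 to 11.09 in controls and 10.24 to 10.63 in mutants. Ccne2, cyclin E2, was lower by -0.77 (adjusted p = 0.00976) and Birc5, survivin, by -0.39 (adjusted p = 0.0085). Mki67 and Top2a, general proliferation markers, differed by 0.04 and 0.17 (adjusted p = 0.897 and 0.189). The count was 3 without any 1 of controls 1, 2, 4, 5 and 6.

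The genes lower by the widest margins included some with no link to the lists. Gt(ROSA)26Sor read 7.78, 8.60 and 8.79 in controls and 3.90, 4.99 and 5.60 in mutants, a difference of -3.63 (SE 0.25, 12.4-fold, adjusted p = 7.94e-06). The mutant values lie near the receptor level of 5.22, so the fold may be understated. It held in both sets (-3.80 and -3.46), in all 4 comparisons of 3 mutants with 3 controls and with the random block (adjusted p = 0.000255). The locus is widely used to insert reporter alleles, and the labels name none. Sult1d1, a sulfotransferase, read 5.95 to 6.98 in controls and 3.68 to 4.56 in mutants (-2.41, adjusted p = 6.47e-05). Ang, angiogenin, read 9.10 to 9.46 in controls and 4.63 to 8.67 in mutants (-2.93, adjusted p = 0.0135). Mutants 3 and 4 at 8.67 and 8.20 stood above the other 4, which read at most 5.80. With the random block Ang was not called (adjusted p = 0.123). Zfp874a read 3.56 to 4.03 in mutants 1 to 3 and 6.12, 6.28 and 3.91 in mutants 4, 5 and 6, against 7.10 to 7.85 in controls (-2.85, adjusted p = 0.00412).

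With controls 1 to 3 and controls 4 to 6 used separately, 80 genes were called in all 4 comparisons of 3 mutants with 3 controls, 35 higher and 45 lower. Beside Hbb-y, Gt(ROSA)26Sor, Sult1d1, Thbs1 and Cd52, described above, they included Spink5, Cnfn, Clec3b, Kdf1, Dnph1, Rsl1 and Klf9. Klf9, a Krüppel-like factor that responds to glucocorticoids, read 9.03, 9.19 and 9.28 in controls and 9.70, 9.92 and 10.16 in mutants, a small but evenly spread difference (0.76, SE 0.08, adjusted p = 0.000337).

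Mutants 1 to 3 and mutants 4 to 6 also differed from each other. Among the 3510 calls 2185 were higher and 1325 lower in mutants 1 to 3. The transcription factor gene Six4 read 8.20, 8.39 and 8.57 in controls, 5.57, 6.01 and 5.36 in mutants 1 to 3, and 8.22, 8.23 and 8.01 in mutants 4 to 6, so the sets differed by -2.51 (adjusted p = 5.16e-06). Tmem237, a protein of the ciliary transition zone, read 9.55 to 9.74, then 6.35 to 7.49, then 9.37 to 9.59 in the same order (-2.49, adjusted p = 3.87e-05). Egfl6, a secreted matrix protein, read 9.98 to 10.29, 7.15 to 8.50 and 10.21 to 11.11 (-2.77, adjusted p = 0.000132), and the ciliary dynein gene Dnaic2 read 7.54 to 9.88, 4.02 to 6.58 and 8.02 to 9.40 (-3.13, adjusted p = 0.01). In these 4 genes mutants 4 to 6 lay in or near the control range, mutants 1 to 3 lay below it, and none was called over the 12 arrays.

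Hoxd1 read 3.27 to 4.18 in controls, 3.98, 5.89 and 7.31 in mutants 1 to 3 and 3.25 to 3.54 in mutants 4 to 6 (2.36, adjusted p = 0.0189). Cnmd, chondromodulin of cartilage, read 8.36 to 10.97 in mutants 1 to 3 against 6.66 to 8.02 in controls and 6.88 to 7.43 in mutants 4 to 6 (2.08, adjusted p = 0.0298). Zic1 behaved otherwise, with 6.31 to 7.31 in mutants 1 to 3, 3.20 to 3.99 in mutants 4 to 6 and 4.51 to 6.77 in controls, so mutants 4 to 6 were the set below controls (sets apart by 3.00, adjusted p = 0.00193). Chsy3, a chondroitin synthase, was below controls in mutants 1 to 3 (-1.60, adjusted p = 0.000182) and above them in mutants 4 to 6 (0.82, adjusted p = 0.00688), and its mean over all 6 mutants (-0.39, adjusted p = 0.677) therefore showed neither.

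**Figure D5:**
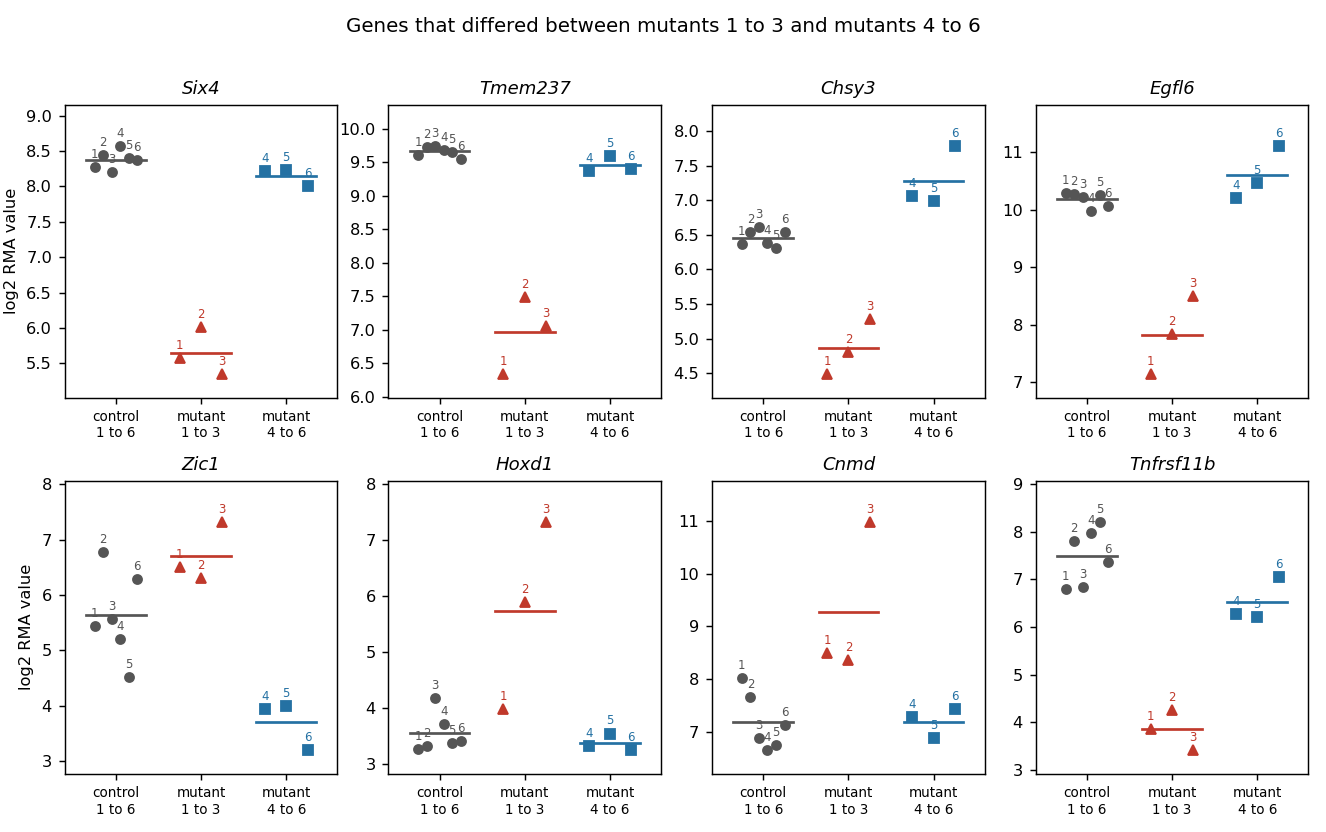
Log2 RMA values of 8 genes called for the difference between mutants 1 to 3 and mutants 4 to 6, in each array (numbered points), with a line at each mean. Six4, Tmem237 and Egfl6 are low in mutants 1 to 3 and near controls in mutants 4 to 6, Chsy3 lies on opposite sides of the controls, and Hoxd1 is highest in mutant 3 (7.31).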

How the data were processed

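The members and gene lists were chosen with earlier results of these data known. The authors deposited log2 values made with RMA, per the submitters' processing notes, whose version is not given in the sources used here; scanner files were not used here. RMA quantile-normalizes arrays, which hides any shift common to most genes, and levels of different probe sets are not comparable. Of 45101 probe sets, 64 were controls, 34945 had 1 symbol in the platform annotation, 932 several and 9160 none listed. The brightest probe set over the 12 arrays stood for each of 18193 genes (18032 matched RefSeq, no symbol changed), with no filter on dim genes. The level of 70 olfactory and vomeronasal receptor genes gave the background (median 3.61).

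The 2-sided test was limma (version 3.58.1, lmFit and eBayes; R 4.3.3; statmod 1.5.0) without covariates: over the 12 arrays (10 residual degrees of freedom), over 3 mutants with 6 controls (7), and between the sets of mutants in 3 groups (9). A gene was called at an adjusted p under 0.05 over all genes. Array number limits the precision. The fit was tested on simulated data.

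The named genes are the 6 markers and Tgfbr2; the 12 largest changes each way that held in both sets with groups apart (predicted genes passed over); from each of 45 lists the called members with the largest changes (at most 2), or else 1 with the smallest p; the 6 largest differences each way between sets; and the 2 genes most like each marker. Other genes were chosen after their values were seen. Listed genes without a probe set of 1 symbol (77 of 1020) were not analysed here. Alternatives were other probe sets, scalings, variance models, blocks, covariates, control sets and single-array omissions. Equal replicate numbers did not pair mutants with controls (deviations correlated over 0.1 in 2 of 6 pairs). Figures used matplotlib 3.10.9 in Python 3.11.15.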

Additional observations from a re-analysis of the deposited data

Results flagged for a closer look

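Among 312 sets of 6 values screened, in named genes and list means, 9 held a value far outside the other 5 of its group, at a limit that chance passes in about 1 of 20 groups. These are fewer flags than that rate would give among 312 groups. Mutant 1 gave 8 of the 9. It was far above the other mutants in Cdon (10.42), Igf2r (12.17), Mef2a (10.92) and Mitf (7.86) and in the mean of erythroid (7.15) and mast cell genes (7.32), and far below them in Anxa1 (12.52), an epithelial annexin, and in the mean of nasal secretory epithelium genes (5.70). The remaining value was control 6 in H2-K1, a class I histocompatibility gene, at 8.28, below the other controls. Cdon, Igf2r and Mef2a were called without mutant 1 as well. Its labelling spike-ins were also the lowest of the 12 arrays (7.23), with a 3 prime minus 5 prime difference of 2.50; their part in these values was not tested.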

How the results depend on the processing

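Over the 12 arrays 1573 genes were called. The count was 2978 (1830 higher, 1148 lower) with every probe set on its own, 3042 (1643, 1399) with array weights, 2449 (1422, 1027) with all 18 arrays, 235 (104, 131) with a random block, 55 (29, 26) with controls 1 to 3 only, 405 (253, 152) with controls 4 to 6 only, 513 (293, 220) with the sarcomere list mean as a covariate chosen after seeing the data, 363 (187, 176) at an adjusted p under 0.01 and 181 (94, 87) at 2-fold or more. Higher genes numbered 455 after median centring and 1607 after ribosomal centring. Leaving out single arrays gave 679 to 1847 calls, 377 to 1082 higher and 302 to 765 lower. A block for the replicate number, which does not pair these samples (1 of 6 mutants correlated best with its own number), gave 890 calls (510 higher, 380 lower). Of the listed genes 123 were called, 222 with array weights, 77 with the replicate block, 20 with the random block, 5 and 37 with either set of controls, 53 with the sarcomere covariate, 38 at the stricter threshold, 39 at 2-fold and 62 to 162 without single arrays.

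For mutants 1 to 3, 4075 became 751 with controls of the same numbers and 1324 with the others, and 3553 to 4752 without single mutants. For mutants 4 to 6, 3592 became 3417 with controls 4 to 6 and 579 with controls 1 to 3. It became 1887 with 12 arrays in 3 groups, and 1890 to 3030 without single mutants. The difference between sets gave 1687 calls when the control sets were subtracted and 4636 without mutant 1. Genes called in both sets numbered 80 against each set of controls and 912 without mutant 1. The fits with fewer controls have fewer samples, and the cause of these changes in count was not tested. Values of single named genes stayed on their side of the threshold in 2562 cases, lost their call in 498, gained one in 42 and reversed in 1, H2-K1, at -1.24 with the probe set of largest SD. Only 30 of the 978 genes had both group means below the receptor background level of 5.22.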

Other observations

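Of 13 fetal serum protein genes 5 were higher over the 12 arrays, where 5.14% of all genes were, and 2 held in both sets. Afp, alpha-fetoprotein of fetal liver and yolk sac, read 4.44 to 5.12 in controls, 4.71 in mutant 2 and 6.64 to 8.80 in the other mutants (2.74, SE 0.60, adjusted p = 0.017, limma). The count was 2 without control 1, 2, 4 or 5 or mutant 5, and 3 without control 3 or 6 or mutant 1 or 4. Of 17 cholesterol and lipid genes Scd1, a fatty acid desaturase, and Fasn, fatty acid synthase, were higher in both sets (1.03 and 0.39, adjusted p = 0.0058 and 0.0155) and under every single-array omission. Of 21 Schwann cell and neuron genes Pmp22 and Egr2, a myelin protein and the factor that drives myelination, were higher in both sets (0.77 and 0.88, adjusted p = 0.0107 and 0.017). Of the 21, 8 were higher with mutants 1 to 3 and 3 with mutants 4 to 6, where 14.3% and 8.93% of all genes were. Of 12 glucocorticoid response genes 3 were higher, among them Klf9 and Zbtb16 (0.55, adjusted p = 0.0167).

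Malat1, a nuclear non-coding RNA, and Cap1, an actin regulator, were singled out after their values were seen. Malat1 read 9.80 to 10.69 in controls and 11.31 to 13.32 in mutants (1.68, adjusted p = 0.00701), and Cap1 read 8.08 to 9.23 and 10.70 to 11.08 (2.18, adjusted p = 0.000102). Both were called in all 4 comparisons of 3 mutants with 3 controls, and Cap1 was also called between the sets of controls.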
